A study of Mus musculus with 54 samples.

Results

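Brainstem RNA of BalbC/J mice was set against brainstem RNA of C57BL6/J mice on 6 gene expression arrays, chosen from the 54 arrays of the series by the strain and tissue that the labels give. The BalbC/J side had 3 arrays and the C57BL6/J side 3. On each side 1 array carried RNA of mice tested for prepulse inhibition and 2 carried RNA of untested mice. All mice were males killed on postnatal day 60, and every array held tissue pooled from 3 animals, taken from alternating hemispheres. Both strains are inbred and untreated, so they differ across the whole genome and by no single allele. The series has 6 strains and 3 tissues, and the other 12 brainstem arrays (C3H HeJ, C57BL10/J, C57BLKS/J and C57L/J) entered the fit only to estimate the spread between arrays. The labels give no inhibition score for either strain. They also do not say that the pools of a strain came from different animals, so p-values measure the spread between these pools, which may be technical in part.

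The brainstem joins the spinal cord to the forebrain and holds the short circuit of the acoustic startle reflex, from the cochlear nucleus to giant neurons of the reticular formation and on to motor neurons. Prepulse inhibition is the weakening of that startle when a softer sound comes just before the loud one, and cholinergic neurons of the midbrain and pons take part in it. Noradrenergic cells of the locus coeruleus, serotonergic cells of the raphe and glycinergic inhibitory cells also lie here. BalbC/J is an albino strain and C57BL6/J a black one, and C57BL6/J is the source of the mouse reference genome.

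Values are the deposited log2 expression values of probe sets, so a difference of 1 is a 2-fold difference. They have no read depth, and the number of arrays limits the precision. A gene was represented by its brightest probe set and tested where that set lay above the array's 40th percentile, 3.24 to 3.32 on these arrays, on at least 3 brainstem arrays. Across the 12484 genes tested, arrays of the same strain correlated at r = 0.997 to 0.9984 and arrays of different strains at 0.9888 to 0.9905. These values are across genes of arrays that share a platform and a normalization. Of 11 brainstem markers tested, such as the glycine transporter Slc6a5 and the vesicular glutamate transporter Slc17a6, 10 were not called different and Dbh was lower. The 13 hindbrain Hox genes tested were all measured in both strains.

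The 6 arrays were not alike in the levels of marker genes of neighbouring tissue. What tissue each pool held was not tested. Genes of cerebellar neurons lay above their median over the 18 brainstem arrays by a median of 1.03 on the tested BalbC/J array, 0.96 on the first untested and 0.04 on the second untested BalbC/J array. The C57BL6/J arrays stood at -0.47, -0.59 and -0.41 in the same order. Choroid plexus genes ran the other way, at -1.53, -1.70 and -0.06 on the BalbC/J arrays and -0.17, 0.52 and 0.17 on the C57BL6/J arrays. The second untested C3H HeJ array, which is in neither group but shares the fit, stood at 4.58 for the cerebellar genes. The median standard error of the strain difference was 0.0980 with that array in the fit and 0.0750 without it, over 12475 genes. The second untested BalbC/J array stood apart in genes of blood neutrophils, with S100a8 at 3.23, 3.18 and 7.63 on the BalbC/J arrays and 3.19, 3.29 and 3.24 on the C57BL6/J arrays. List counts above 0 are therefore also given without the C3H HeJ array, with the 2 marker levels of each array as covariates, and with the second untested BalbC/J array as the only one of its strain, and counts of 0 without the C3H HeJ array. The setting with a single BalbC/J array takes that array's spread from the other strains. The covariate setting uses all 18 brainstem arrays. The C3H HeJ array, at 4.58 for cerebellar genes and -1.12 for brainstem markers, lies far from the 6 compared arrays in it. How much the covariate results rest on the C3H HeJ array was not tested. For the 11 brainstem markers above, 2 were higher and 2 lower without the C3H HeJ array, and 5 and 1 with the covariates. Their median difference was 0.11, and 0.31 with the covariates and 0.07 with the single BalbC/J array.

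**Figure D1:**
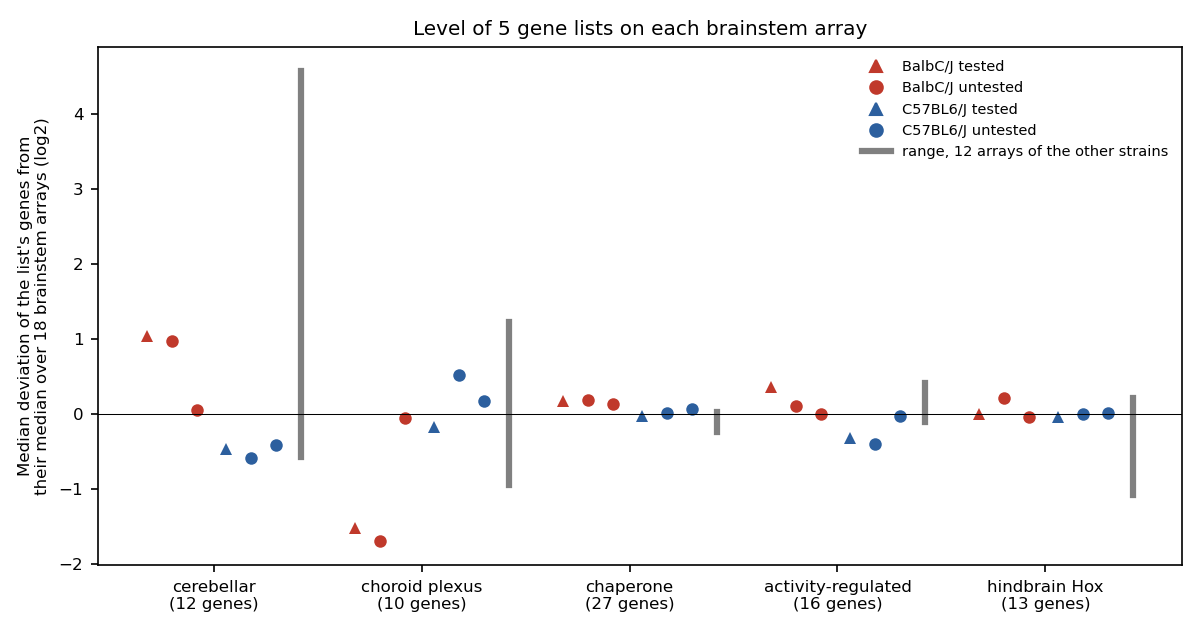
Median deviation (log2) of the genes of 5 lists from their own median over the 18 brainstem arrays, for each BalbC/J array (red) and each C57BL6/J array (blue), with triangles for tested pools, circles for untested pools and grey bars for the range over the 12 arrays of the other strains. Cerebellar genes were at 1.03 and 0.96 on the first 2 BalbC/J arrays and at 0.04 on the third, choroid plexus genes at -1.53, -1.70 and -0.06, and hindbrain Hox genes stayed between -0.05 and 0.21 on all 6 arrays.

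The question was which genes differ between the strains in this tissue. At a Benjamini-Hochberg adjusted p under 0.05 limma called 1534 of 12484 genes (12.3%), of which 1056 were higher in BalbC/J (8.46% of the genes tested) and 478 lower (3.83%). Of the called genes 226 differed by over 2-fold (1.81%). The median difference over all genes tested was 0.04, and after quantile normalization, which brought that median to 0.01, the split was 736 higher and 582 lower of 1318. Without the second untested C3H HeJ array 3157 of 12475 genes were called (25.3%), and all 1534 were among them in the same direction. With both marker covariates 2337 were called (18.7%), sharing 1263 with the 1534. With the second untested BalbC/J array alone 473 were called, 424 of them shared. Leaving out a single array of the 2 strains gave fewer calls each time, from 971 without the tested C57BL6/J array to 1141 without the second untested BalbC/J array. The 3 BalbC/J values did not overlap the 3 C57BL6/J values in 5081 genes (40.7%), so absence of overlap alone marks little on these arrays.

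**Figure D2:**
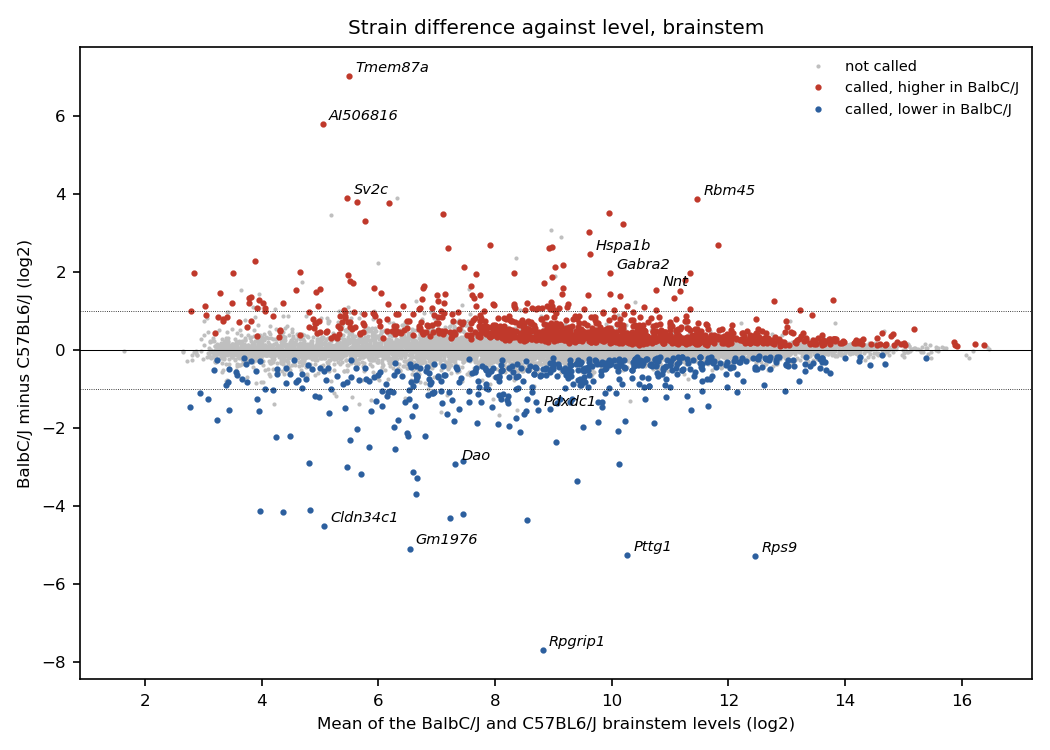
Each dot is 1 of the 12484 genes, with the mean of its BalbC/J and C57BL6/J brainstem levels (log2) on the horizontal axis and BalbC/J minus C57BL6/J (log2) on the vertical axis, red where called higher in BalbC/J and blue where called lower. Dotted lines mark 2-fold. Called genes number 1056 above 0 and 478 below, and 226 lie beyond the dotted lines.

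The widest differences were gene by gene and close to all or none. Tmem87a, which encodes a membrane protein of the Golgi, read 8.97, 9.01 and 9.06 on the BalbC/J arrays against 1.95, 1.98 and 2.00 on the C57BL6/J arrays. The C57BL6/J values lay below the 40th percentile, so the difference is at least 52.6-fold (adjusted p = 1.54e-13). The expressed sequence AI506816 was likewise above the filter in BalbC/J and below it in C57BL6/J, at 7.84, 7.96 and 8.04 against 2.11, 2.17 and 2.19, or at least 25.2-fold higher. Sv2c, a synaptic vesicle glycoprotein, was at 7.50, 7.42 and 7.34 in BalbC/J against 3.62, 3.63 and 3.31 in C57BL6/J (difference 3.90 ± 0.34 SE, adjusted p = 3.59e-06). In these 3 genes the replicates of a strain lay close together and far from the other strain.

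Some other wide rises were in genes well expressed in both strains. Rbm45, an RNA-binding protein, was at 13.49, 13.41 and 13.32 in BalbC/J and 9.49, 9.59 and 9.52 in C57BL6/J. Gnb1, a beta subunit of the heterotrimeric G proteins that carry receptor signals, was at 13.16, 13.20 and 13.19 against 10.56, 10.35 and 10.52. Cap1, which binds actin and adenylyl cyclase, was at 11.70, 11.73 and 11.70 in BalbC/J against 8.26, 8.27 and 8.06 in C57BL6/J. Among these 3, Gnb1 and Cap1 had a second probe set that moved the same way, by 1.75 and 3.60. Pi4kb, a lipid kinase of the Golgi, was at 8.63, 8.85 and 9.08 in BalbC/J against a more scattered 6.33, 4.75 and 5.02 in C57BL6/J. Its second probe set differed by 0.01 (adjusted p = 0.872) and was near the filter in both strains, with means of 3.60 and 3.59. The remaining 8 of the 15 widest rises were Tifa, an adaptor of NF-kB signalling, Abhd1, the zinc finger genes Zscan29 and Zfp458, Fam227b, Wdfy1, Hddc3 and Lsm12, with differences of 2.63 to 3.80. Of these, Tifa, Zscan29 and Abhd1 were low in C57BL6/J, with means of 3.74, 4.11 and 4.30.

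Among the genes lower in BalbC/J the widest was Rpgrip1, known from the connecting cilium of photoreceptors. It read 4.91, 4.53 and 5.49 on the BalbC/J arrays against 12.74, 12.77 and 12.49 on the C57BL6/J arrays, a difference of -7.69 ± 0.20 (SE, adjusted p = 5.74e-12). Its second probe set was near the filter in both strains, with means of 3.52 and 3.57. Pttg1, the securin that holds sister chromatids together until anaphase, was at 7.19, 8.01 and 7.74 in BalbC/J against 12.98, 12.81 and 12.88 in C57BL6/J. Its second probe set differed by -6.26 and the third by -1.13, so all 3 sets of Pttg1 were lower in BalbC/J.

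Myo7a, an unconventional myosin of sensory hair cells, was at 2.18, 3.01 and 3.16 in BalbC/J, below the 40th percentile, against 6.83, 6.90 and 6.93 in C57BL6/J, or at least 12.4-fold lower. Mid1, a ubiquitin ligase of microtubules whose gene spans the pseudoautosomal boundary of the X chromosome in C57BL/6 mice, was at 1.91, 1.91 and 1.95 in BalbC/J against 5.11, 5.82 and 7.18 in C57BL6/J, or at least 6.88-fold lower. The C57BL6/J values of Mid1 were spread over more than 2 log2 units and still did not meet those of BalbC/J. Dmp1, a matrix protein first known from dentin, was at 6.10, 4.92 and 5.04 against 9.35, 9.48 and 9.84, and all 3 of its probe sets were called lower in BalbC/J. Mcm6, a subunit of the replicative helicase, was at 4.03, 4.15 and 4.14 in BalbC/J and 6.93, 7.75 and 7.19 in C57BL6/J.

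The other genes among the 15 widest falls were Rps9, Gm1976, Cldn34c1, Gm26782, 1500004A13Rik, Zfp874a, Smco3, Mtmr7 and Ccdc25, with differences of -5.29 to -3.27. Outside the 15, Zhx2 was at 5.05, 4.85 and 5.22 in BalbC/J against 8.17, 8.15 and 8.18 in C57BL6/J (difference -3.13 ± 0.11 SE, adjusted p = 1.19e-10). Zhx2 is a repressor of fetal genes in liver, and BALB/cJ mice are known to carry a retroviral insertion in it. It was singled out after its value was seen.

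**Figure D3:**
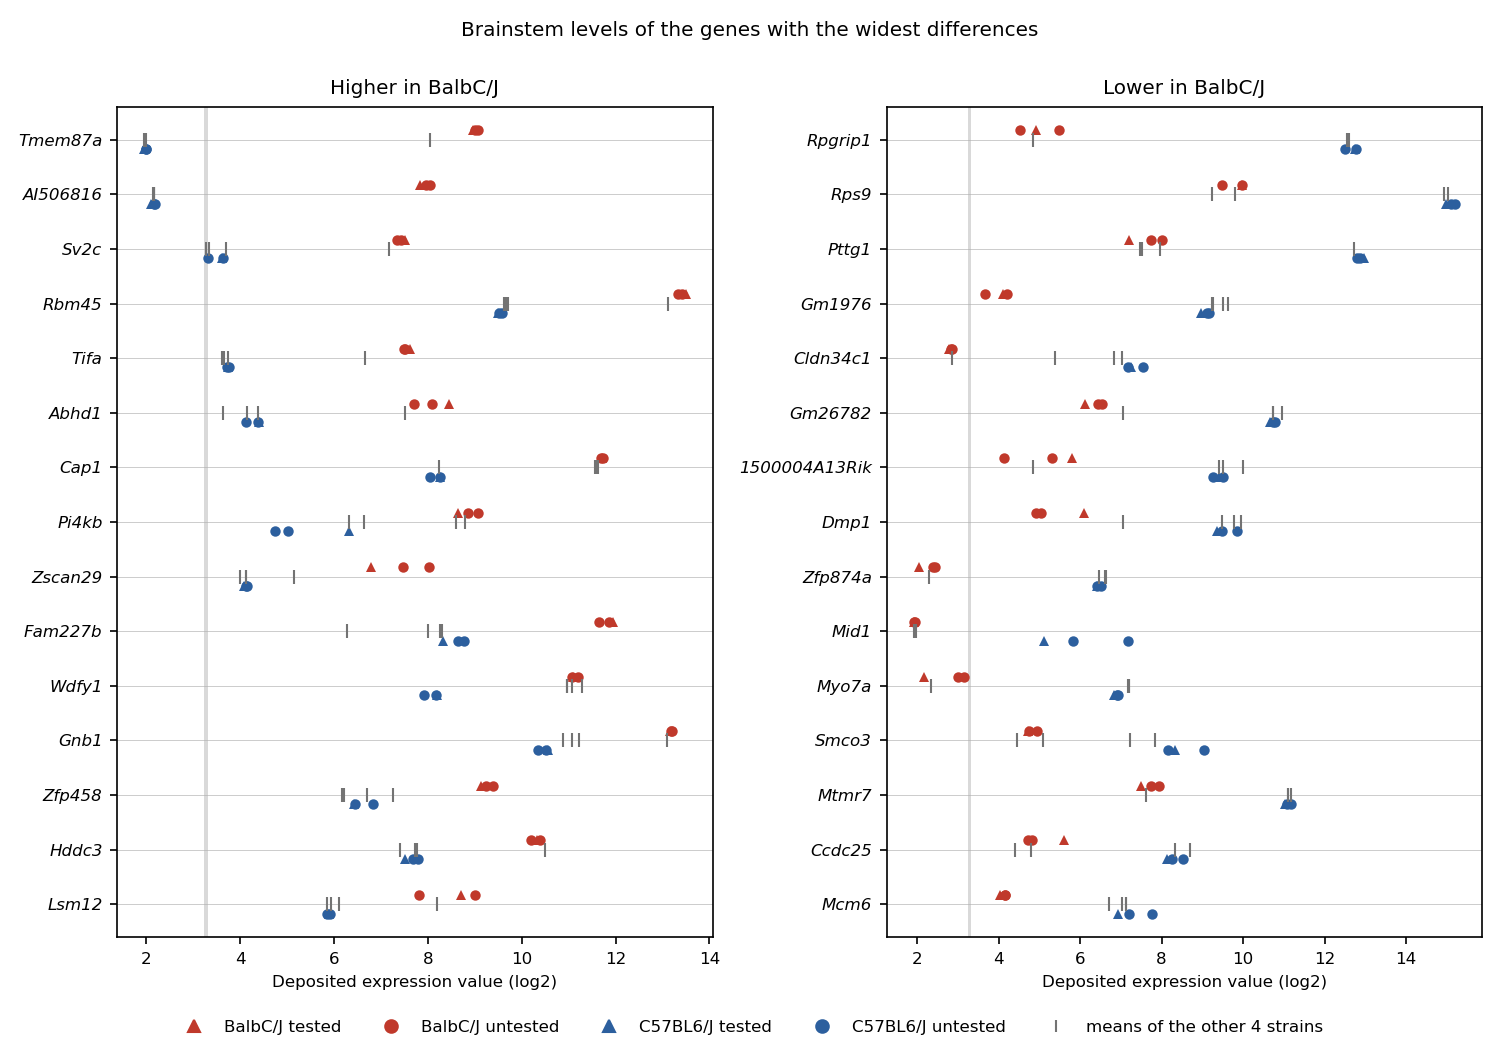
Deposited log2 values of the 15 genes with the widest rise (left) and the 15 with the widest fall (right) in BalbC/J brainstem. Each row shows the 3 BalbC/J arrays (red) above the 3 C57BL6/J arrays (blue), with triangles for tested pools and circles for untested pools, grey ticks for the means of the other 4 strains and a grey band for the 40th percentile, 3.24 to 3.32. Red and blue points do not overlap in any row.

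A gene's probe sets did not always move together. Of the 226 called genes over 2-fold, 104 had a single probe set and 26 had no other above the filter. In the remaining 96, the next brightest set was called the same way in 45, was not called in 47 and was called the opposite way in 4. Rps9, a protein of the small ribosomal subunit, shows such a split, with the brightest set at 9.98, 9.48 and 9.97 in BalbC/J against 14.98, 15.11 and 15.20 in C57BL6/J, and the second at means of 12.21 and 12.24. Zfp458 and Hddc3 had a second set that differed by -0.07 in each. The second set was near the filter in Zfp458, with means of 3.63 and 3.70, and low in Hddc3, with means of 4.40 and 4.47. Probe sequences were not analysed here, so a strain difference in RNA level and one in the sequence a probe reads cannot be told apart.

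Pdxdc1, the gene named in the series title and a relative of the pyridoxal phosphate decarboxylases, had probe sets that ran in opposite directions. Its brightest set read 8.03, 8.22 and 7.63 in BalbC/J against 9.53, 9.48 and 9.49 in C57BL6/J. Its second set averaged 3.30 in BalbC/J and 10.33 in C57BL6/J, while the third averaged 10.94 in BalbC/J and 2.95 in C57BL6/J. The 4 sets therefore give a lower, a much lower, a much higher and again a lower Pdxdc1 in BalbC/J, and no single direction for the gene.

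The other strains shared many of these levels. Taking for each of the 226 genes which of the 2 means each other strain lay nearer to, C3H HeJ was nearer BalbC/J in 142, C57BLKS/J in 58, C57L/J in 57 and C57BL10/J in 23. In 59 genes BalbC/J stood by itself, in 66 it stood with C3H HeJ alone, and in 7 C57BL6/J stood by itself. AI506816 and Gm1976 were of the first kind, with means in the other 4 strains of 2.13 to 2.16 and 9.23 to 9.64. Tmem87a (8.04 in C3H HeJ, 1.96 to 1.98 in the 3 others) and Rpgrip1 (4.84 in C3H HeJ) were of the second, and Wdfy1, an endosomal protein at 11.09, 11.20 and 11.08 in BalbC/J against 8.20, 7.92 and 8.17 in C57BL6/J, was of the third. These are descriptions of means, with no test.

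Counts of list members in the main fit are to be read against the 8.46% of all genes called higher and the 3.83% called lower. Counts from other settings have their own backgrounds, 25.3% of all genes called without the C3H HeJ array and 18.7% with the covariates. With the single BalbC/J array most of the called genes lost their call, so such a loss is not particular to a list or gene. They count the brightest probe set of each gene, and of 10433 further probe sets tested 10.3% were called. Loci already known to vary between inbred strains were listed as a group. Like the other lists, this list was chosen with earlier results of these data known, so its share is a description and no test. Of 12 tested, 7 were higher in BalbC/J and 0 lower, beside 8.46% and 3.83% of all genes, and their median difference was 0.43 against 0.04 over all genes. Besides Cap1 and Wdfy1 they were Alad, Gabra2, Nnt, Ahr and Glo1. Alad, the haem synthesis enzyme that joins aminolevulinate, was at 10.12, 9.98 and 10.19 in BalbC/J and 8.31, 7.81 and 7.79 in C57BL6/J. Nnt, a mitochondrial enzyme that makes NADPH and is deleted in part in C57BL/6J, was at 11.60, 11.41 and 11.59 in BalbC/J against 9.78, 10.10 and 10.11 in C57BL6/J (difference 1.54 ± 0.14 SE, adjusted p = 6.25e-06). Of the 12, 8 were higher without the C3H HeJ array, with the covariates 8, and with the second untested BalbC/J array alone 5.

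GABA-A receptors are the chloride channels of fast inhibition. Of 9 subunits tested 2 were higher and 0 lower in BalbC/J on their brightest sets (22.2%, against 12.3% of all genes). The counts were 2 and 1 without the C3H HeJ array, 2 and 0 with the covariates, and 1 and 0 with the single BalbC/J array. Among 13 further probe sets of these genes 2 were higher and 2 lower, the lower being sets of Gabrb1 at -0.64 and -0.53, while the brightest Gabrb1 set differed by -0.23 (adjusted p = 0.245 among all probe sets). Gabra2 was at 11.02, 10.95 and 10.89 in BalbC/J against 8.81, 9.13 and 9.01 in C57BL6/J, a difference of 1.97 ± 0.11 (SE, adjusted p = 2.43e-08), and C57BL/6J is known to carry an intronic deletion that lowers it. The second and the third probe sets of Gabra2 rose by 1.79 and 2.14, and the fourth, near the filter, differed by -0.05. Gabra4 was at 10.01, 10.08 and 10.02 in BalbC/J against 9.59, 9.41 and 9.57 in C57BL6/J, and lost its call with the second untested BalbC/J array alone (adjusted p = 0.103). Genes of GABA synthesis, transport and GABA-B receptors had 0 of 9 called by limma, with 3 at an unadjusted p under 0.05 and 3 called without the C3H HeJ array. Among 8 further probe sets of these 9 genes 2 were lower and 0 higher, 1 of Gabbr1 at -0.23 and 1 of Slc12a2 at -0.54. The brightest sets of Gabbr1 and Slc12a2 differed by 0.11 and -0.21.

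Glycine is the other inhibitory transmitter of the brainstem. Of 12 genes for its receptors, transporters and cleavage system only Gcsh was called on its brightest set. Gcsh, a subunit of the glycine cleavage system, was at 12.07, 12.08 and 12.06 in BalbC/J against 11.91, 11.96 and 11.89 in C57BL6/J. Among 9 further probe sets of these genes 1 was lower and 0 higher. It was the second set of the receptor subunit Glrb, at -0.39 (adjusted p = 0.0202 among all probe sets), while the brightest Glrb set differed by -0.07 (0.413). Of the 12, 3 were higher and 2 lower without the C3H HeJ array, with the covariates 2 and 1, and with the single BalbC/J array 0. The difference of 0.15 in Gcsh lost its call with the marker covariates (adjusted p = 0.0530) and after quantile normalization (0.0770). The receptor subunit Glra1 was at 12.97, 12.98 and 12.66 in BalbC/J and 13.16, 13.08 and 12.99 in C57BL6/J and was not called (adjusted p = 0.701).

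In noradrenergic genes 1 of 9 was lower and 0 higher, a share of 11.1% that is near the 12.3% over all genes. Without the C3H HeJ array 1 was higher and 3 lower, and with the covariates 1 and 1. Dbh, which makes noradrenaline from dopamine, was at 8.20, 8.33 and 8.40 in BalbC/J against 8.82, 8.81 and 8.83 in C57BL6/J (difference -0.51 ± 0.14 SE, adjusted p = 0.0288). The noradrenaline transporter Slc6a2 was at 7.13, 7.58 and 7.73 in BalbC/J against 8.37, 8.30 and 8.38 in C57BL6/J. On this brightest set the difference of -0.87 was not called (adjusted p = 0.186) and was called without the C3H HeJ array (0.00124). Among 5 further probe sets of the noradrenergic genes 1 was lower and 0 higher. It was the second Slc6a2 set, at -1.14 (adjusted p = 0.00115 among all probe sets), with means of 3.37 in BalbC/J, near the filter, and 4.51 in C57BL6/J. The third Slc6a2 set differed by -0.57 (0.0782). The vesicular monoamine transporter Slc18a2 differed by -0.40 (adjusted p = 0.276, and 0.0323 without that array). In these tissue pools fewer cells of a type and less RNA per cell cannot be told apart. With the second untested BalbC/J array alone no noradrenergic gene was called, and Dbh differed by -0.42 (adjusted p = 0.382).

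Of 8 serotonergic genes limma called 0, with 0 at an unadjusted p under 0.05 and 1 called without the C3H HeJ array. With the covariates 2 were higher and 0 lower. Tph2, which makes serotonin in the raphe, was at 8.84, 9.07 and 9.37 in BalbC/J and 8.32, 8.71 and 8.65 in C57BL6/J (adjusted p = 0.542), and its difference was 1.26 with the marker covariates (0.00957). The second untested C3H HeJ array stood at -0.61 for the serotonergic genes, and its part in the covariate result was not tested. Of 6 midbrain dopaminergic genes Aldh1a1, an aldehyde dehydrogenase, was lower and Nr4a2, a transcription factor of dopamine neurons, higher (33.3% called, against 12.3% of all genes). Aldh1a1 was at 12.46, 12.38 and 12.47 in BalbC/J against 13.42, 13.51 and 13.53 in C57BL6/J, while the other 4 strains averaged 13.24 to 13.61. Of the 6, 4 were higher and 1 lower without the C3H HeJ array, with the covariates 3 and 1, and with the single BalbC/J array 0 and 1, so that Nr4a2 lost its call there (adjusted p = 0.384). The list's median difference was 0.64, and 0.14 with the covariates. Cholinergic and motor nucleus genes had 0 of 8 called, with 1 at an unadjusted p under 0.05 and 1 called without the C3H HeJ array.

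Receptor genes of other transmitters gave few calls. Ionotropic glutamate receptors, the channels of fast excitation, had 0 of 14 called by limma, 0 at an unadjusted p under 0.05 and 0 without the C3H HeJ array, with differences of -0.32 to 0.19. With the marker covariates 3 of the 14 were called lower, and among 11 further probe sets of these genes 1 was higher (Gria2, 0.62) and 1 lower (Grik1, -1.77). Glutamate transporters and metabotropic receptors had 0 of 12 called (1 at an unadjusted p under 0.05, 3 without that array), and serotonin and acetylcholine receptors 0 of 9 (1 and 1). Among 12 further probe sets of the transporters and metabotropic receptors 1 was higher and 1 lower, both of the glial transporter Slc1a2, at 1.98 and -2.04, so its sets gave no single direction. The glial glutamate transporter Slc1a3 differed by 0.71 (adjusted p = 0.142, and 5.85e-05 without that array). Among 17 neuropeptide precursors Npy, a peptide of many inhibitory neurons, was higher, at 8.87, 9.20 and 8.49 in BalbC/J against 8.21, 8.17 and 8.10 in C57BL6/J, and lost its call with the second untested BalbC/J array alone (adjusted p = 0.425). In that setting 1 of the 17 was higher and 0 lower, without the C3H HeJ array 3 and 1, and with the covariates 6 and 1. Of 13 axonal and neurofilament genes 0 were called, 0 had an unadjusted p under 0.05 and 3 were called without the C3H HeJ array. With the covariates 5 of the 13 were higher and 0 lower, where 18.7% of all genes were called.

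Genes proposed as candidates for prepulse inhibition or schizophrenia had 2 higher and 3 lower of 22 tested (22.7% called, against 12.3% of all genes). The 3 lower include Pdxdc1, called on its brightest set, although its sets gave no single direction. The counts were 5 and 4 without the C3H HeJ array, 5 and 2 with the covariates, 0 and 2 with the single BalbC/J array, and 0 and 3 after quantile normalization. The widest was Dao, which encodes D-amino acid oxidase, the enzyme that breaks down D-serine, a co-agonist of NMDA receptors. Dao was at 6.33, 5.88 and 5.38 in BalbC/J against 8.70, 8.70 and 8.93 in C57BL6/J, a difference of -2.91 ± 0.34 (SE, adjusted p = 5.40e-05). The other 4 strains averaged 8.03 to 8.96, all nearer C57BL6/J, and Dao kept its call with the covariates (-3.37) and with the second untested BalbC/J array alone (-3.43). The neuregulin receptor Erbb4 was at 4.95, 4.85 and 5.08 in BalbC/J against 6.27, 6.05 and 5.17 in C57BL6/J. The other 4 strains averaged 5.00 to 5.22, a range that holds the lowest C57BL6/J value, and Erbb4 lost its call in 7 alternatives, among them the covariates (adjusted p = 0.0847). Snap25, a SNARE protein of vesicle release, was higher by 0.12, while its second probe set differed by 0.01 and was not called. Fabp7, a fatty acid carrier of glia, was higher by 0.48. Both lost their calls after quantile normalization (adjusted p = 0.0632 for Fabp7 and 0.157 for Snap25) and with the single BalbC/J array (0.421 and 0.393).

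Enzymes that use or make pyridoxal phosphate, the active form of vitamin B6, had 1 higher and 3 lower of 15 tested (26.7% called, against 12.3% of all genes). The counts were 4 and 3 without the C3H HeJ array, 1 and 3 with the covariates, 0 and 2 with the single BalbC/J array, and 0 and 3 after quantile normalization. Etnppl, which breaks down phosphoethanolamine in astrocytes, was at 9.67, 10.06 and 10.09 in BalbC/J against 11.13, 11.18 and 11.30 in C57BL6/J (difference -1.26 ± 0.16 SE, adjusted p = 0.000114). Its second probe set moved the same way, by -1.41. Odc1, the first enzyme of polyamine synthesis, was lower by -0.39 and Sgpl1, a lyase of sphingosine phosphate, higher by 0.39, a call lost after quantile normalization (adjusted p = 0.0870) and with the single BalbC/J array (0.119). Pdxdc1 was the remaining call, on its brightest set.

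Chaperones fold and refold proteins, and many are raised by heat and by proteotoxic stress. Of 27 tested 7 were higher in BalbC/J and 0 lower (8.46% and 3.83% over all genes), with a median difference of 0.19. The widest were the inducible Hsp70 genes. Hspa1b was at 12.73, 10.69 and 9.14 in BalbC/J against 7.47, 8.68 and 9.02 in C57BL6/J, and Hspa1a at 10.20, 8.24 and 7.50 against 6.21, 6.84 and 7.06. The coding sequences of Hspa1a and Hspa1b are nearly the same, so a probe set can read both. The tested BalbC/J pool was far above the other pools, and the second untested BalbC/J pool was close to the C57BL6/J pools.

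Hspe1, the mitochondrial co-chaperonin, was even between replicates, at 13.42, 13.40 and 13.27 in BalbC/J against 12.56, 12.66 and 12.60 in C57BL6/J (difference 0.76 ± 0.06 SE, adjusted p = 9.44e-07). Its second probe set rose by 0.92. Dnajb1, the Hsp40 partner of Hsp70, was at 12.48, 11.88 and 11.51 in BalbC/J against 11.19, 11.19 and 11.50 in C57BL6/J. Hspa5, the Hsp70 of the endoplasmic reticulum, was at 13.73, 13.91 and 13.77 against 13.27, 13.41 and 13.56. Calr and Hsp90aa1 rose by 0.19 and 0.11. Without the C3H HeJ array 13 chaperones were higher and 0 lower, with the covariates 10 and 0, and with the second untested BalbC/J array alone Hspe1 was the only call. The BalbC/J arrays with the highest Hspa1b were also those with raised cerebellar and lowered choroid plexus genes, whose part in the result was not tested.

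Promoters of 3 of these chaperones are shown because these genes were called higher by unlike patterns over the arrays, Hspa1b uneven and Hspe1 and Hspa5 more even. They come from RefSeq (GRCm38.p6) and run from 250 bases before to 50 after the annotated start of the gene, on its own strand. Capitals mark the heat shock element, searched as GAANNTTC and TTCNNGAA, each its own reverse complement, so that neighbouring matches may overlap. In Hspa5 they mark the endoplasmic reticulum stress element, searched on both strands as CCAAT and CCACG with 9 bases of any kind between them. The windows are Hspa1b at chr17:34959189-34959488 (minus strand), Hspe1 at chr1:55087898-55088197 (plus strand) and Hspa5 at chr2:34771840-34772139 (plus strand).
Hspa1b: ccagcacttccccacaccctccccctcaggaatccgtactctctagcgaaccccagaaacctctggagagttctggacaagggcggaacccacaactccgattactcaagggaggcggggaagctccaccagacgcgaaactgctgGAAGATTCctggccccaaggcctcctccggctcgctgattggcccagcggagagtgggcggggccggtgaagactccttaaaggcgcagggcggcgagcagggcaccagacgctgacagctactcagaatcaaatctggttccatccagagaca
Hspe1: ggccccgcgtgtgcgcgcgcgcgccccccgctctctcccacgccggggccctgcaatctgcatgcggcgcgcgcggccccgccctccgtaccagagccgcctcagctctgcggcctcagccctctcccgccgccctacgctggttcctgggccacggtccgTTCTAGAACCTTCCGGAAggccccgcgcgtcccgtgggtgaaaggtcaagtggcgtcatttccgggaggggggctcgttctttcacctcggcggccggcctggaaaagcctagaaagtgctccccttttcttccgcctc
Hspa5: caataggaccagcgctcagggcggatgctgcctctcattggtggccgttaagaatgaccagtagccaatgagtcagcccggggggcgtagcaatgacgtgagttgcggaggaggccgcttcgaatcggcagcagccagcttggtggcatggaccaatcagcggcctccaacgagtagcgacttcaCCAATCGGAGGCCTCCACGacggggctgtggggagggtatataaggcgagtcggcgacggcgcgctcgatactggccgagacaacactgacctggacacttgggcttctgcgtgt

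Hspa1b held 1 heat shock element in this window and Hspe1 held 3, of which neighbours share bases. Of all 27025 genes with a window of this length 17% held at least 1 heat shock element and 0.137% the endoplasmic reticulum element, counting any window of a gene. Of the 27 chaperones 23 had a window, 9 of them with a heat shock element (39.1%) and 6 with the endoplasmic reticulum element (26.1%). Of the 7 called chaperones 6 had a window, and those of Hspa1a, Hspa1b and Hspe1 held the heat shock element and those of Hspa5 and Calr the endoplasmic reticulum element. Neither Dnajb1 window held either. Matches are letters in a window and not a test of any factor.

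Activity-regulated genes, the early genes that neurons switch on after firing, had 4 higher and 0 lower of 16 tested, with a median difference of 0.36 (25% called, against 12.3% of all genes). Fos was at 11.03, 10.83 and 10.21 in BalbC/J against 9.13, 9.01 and 9.60 in C57BL6/J (difference 1.44 ± 0.24 SE, adjusted p = 0.00115). The phosphatase gene Dusp1 was at 9.99, 9.93 and 9.50 against 8.94, 8.87 and 9.21, and Fosl2, a partner of Jun, at 7.38, 7.60 and 7.25 against 6.23, 6.33 and 6.99. Egr1 rose by 0.62. The lowest BalbC/J value lay above the highest C57BL6/J value in all 4, as it or its reverse did in 40.7% of all genes. Without the C3H HeJ array 7 were higher, with the covariates 3, and with the second untested BalbC/J array alone 0 were called.

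Circadian genes had 0 of 17 called by limma, with 3 at an unadjusted p under 0.05 and 3 called without the C3H HeJ array. Of 15 glucocorticoid-responsive genes Pdk4, a kinase that holds back pyruvate oxidation, was higher, at 10.14, 9.53 and 9.20 in BalbC/J against 8.38, 8.41 and 8.88 in C57BL6/J. Pdk4 lost its call after quantile normalization (adjusted p = 0.0638) and with the single BalbC/J array (0.574), and 1 of the 15 was higher without the C3H HeJ array and with the covariates.

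Glutathione and detoxification genes had the largest share of calls among the lists of more than 12 genes, with 8 higher and 1 lower of 22 tested (40.9% called, against 12.3% of all genes). Nnt, described above, led them. Gsr, the reductase that regenerates glutathione, was at 10.09, 9.92 and 10.22 in BalbC/J against 9.31, 9.49 and 9.38 in C57BL6/J, and Txnrd1, the thioredoxin reductase, at 11.16, 11.13 and 11.09 against 10.69, 10.64 and 10.71. Hmox1, which breaks down haem, was at 5.70, 5.91 and 5.71 against 5.01, 4.86 and 4.85. Gstm2, Gstp1, Gpx1 and Glo1 rose by 0.93, 0.28, 0.27 and 0.25.

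Gsto1, a glutathione transferase of the omega class, ran the other way, at 11.32, 11.17 and 11.31 in BalbC/J against 12.00, 11.98 and 12.00 in C57BL6/J (difference -0.73 ± 0.06 SE, adjusted p = 1.30e-06). Its other strain means were 11.14 in C3H HeJ and 11.67 to 11.98 in the 3 C57 strains. Of the 22, 12 were higher and 1 lower without the C3H HeJ array, with the covariates 11 and 1, and with the second untested BalbC/J array alone 5 and 1. After quantile normalization the counts were 6 and 1. Cholesterol synthesis genes had 0 higher and 1 lower of 17, namely the desaturase Sc5d, at 10.62, 10.48 and 10.28 in BalbC/J against 11.16, 11.13 and 11.09 in C57BL6/J. Without the C3H HeJ array and with the covariates 1 was higher and 1 lower, and with the single BalbC/J array 0 and 1.

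Called genes were 16.7% of the MHC and antigen presentation list and 5.88% of the interferon-related list, against 12.3% of all genes. Of 12 genes in the MHC and antigen presentation list H2-Ab1, a class II chain, and H2-Ke6 were higher. H2-Ke6 lies in the MHC region but encodes no MHC chain, and the share of 16.7% counts it. Among 11 further probe sets of genes in this list 4 were higher and 0 lower. H2-Ab1 was at 4.89, 5.44 and 5.59 in BalbC/J against 4.26, 4.34 and 4.36 in C57BL6/J. The strains carry different alleles of this locus, and probe sets can read them unequally. Without the C3H HeJ array 4 of the 12 were higher and 1 lower, with the covariates 5 and 0, and with the single BalbC/J array 2 and 0. Of 17 interferon-related genes Ifit3 was lower, at 7.17, 6.90 and 7.58 in BalbC/J against 8.64, 8.71 and 8.68 in C57BL6/J, and lost its call with the covariates (adjusted p = 0.0652) and with the single BalbC/J array (0.286), while 2 were lower without the C3H HeJ array. C57L/J was lower still for Ifit3, at a mean of 4.73.

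Microglia, the resident macrophages of the brain, are marked by the complement chains C1qa, C1qb and C1qc among others. Of 12 markers 2 were lower and 0 higher (16.7% called, against 12.3% of all genes). C1qc was at 7.25, 7.78 and 7.61 in BalbC/J against 8.94, 8.95 and 8.81 in C57BL6/J (difference -1.36 ± 0.17 SE, adjusted p = 8.99e-05), and C1qb at 10.05, 10.20 and 10.29 against 10.88, 11.28 and 11.13. C1qa, the third chain of the same complex, differed by 0.42 and was not called (adjusted p = 0.0733), and Csf1r, the receptor these cells need to live, by 0.41 (0.0576). Without the C3H HeJ array 4 microglial markers were higher and 2 lower, so the list had no common direction. The counts were 4 and 2 with the covariates, and 0 and 1 with the single BalbC/J array. C3H HeJ was low for C1qc as well, at 6.52, against 8.91 to 9.26 in the other C57 strains.

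Other glial markers moved singly. Gfap, the intermediate filament of astrocytes, was at 13.94, 13.93 and 13.81 in BalbC/J against 12.90, 13.12 and 12.94 in C57BL6/J (difference 0.91 ± 0.26 SE, adjusted p = 0.0335), the only call of 12 astrocyte markers (3 higher and 1 lower without the C3H HeJ array, 1 and 0 with the covariates). Its second probe set rose by 0.97. Kcnj10 and Kcnj16, inward rectifier potassium channels that pair in astrocytes, rose too, Kcnj10 at 13.76, 13.81 and 13.69 in BalbC/J against 12.74, 12.75 and 12.65 in C57BL6/J. With the second untested BalbC/J array alone Kcnj10 kept its call and Gfap did not (adjusted p = 0.000762 and 0.362).

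Oligodendrocytes, which make myelin, had 2 markers higher and 1 lower of 13, and their precursors 2 higher and 0 lower of 8. These are 23.1% and 25% called, against 12.3% of all genes. Opalin, a myelin membrane protein, was at 10.43, 10.07 and 10.30 in BalbC/J against 11.29, 10.98 and 10.66 in C57BL6/J, while Ugt8a, which makes myelin galactolipids, rose by 0.44 and Mbp by 0.15. Among 16 further probe sets of the oligodendrocyte markers 0 were called, with the second sets of Ugt8a and Mbp at 0.30 and 0.11. Of the 13, 2 were higher and 6 lower without the C3H HeJ array, with the covariates 2 and 1, and with the single BalbC/J array 0, where Opalin had an adjusted p of 0.417. The precursor counts were 2 and 2, 1 and 0, and 0 in the same settings. Endothelial markers had 0 of 8 called, 0 at an unadjusted p under 0.05 and 0 called without the C3H HeJ array. The pericyte gene Rgs5 was the only call of 12 mural and meningeal markers, higher by 0.34, with 1 higher without the C3H HeJ array, 2 with the covariates and 0 with the single BalbC/J array. Blood cell markers had 0 of 3 called by limma, 0 at an unadjusted p under 0.05 and 0 called without the C3H HeJ array. Their median deviation was -0.03, -0.10 and 2.83 on the BalbC/J arrays and between -0.08 and 0.00 on the C57BL6/J arrays, with S100a9 at 5.84 on the second untested BalbC/J array.

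Markers of neighbouring structures are given as measured. Of 10 choroid plexus genes Kcnj13, a potassium channel of that epithelium, was lower, at 7.65, 7.63 and 9.28 in BalbC/J against 9.23, 9.96 and 9.88 in C57BL6/J, values that overlap. The list's median was -1.16, with 6 lower without the C3H HeJ array, 1 higher and 1 lower with the covariates and 0 with the single BalbC/J array. The choroid plexus covariate is the mean level of these same genes, so the counts with the covariates say nothing about this list. The transthyretin gene Ttr, at 15.90 to 16.28 in BalbC/J and 16.20 to 16.25 in C57BL6/J, was high on all 6 arrays. Ependymal genes had 0 of 7 called, with 3 lower at an unadjusted p under 0.05 and 2 called without that array.

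Cerebellar genes had 0 of 12 called by limma, with 2 at an unadjusted p under 0.05, and a median difference of 1.21. Without the C3H HeJ array 10 were higher and 0 lower. Gabra6, a GABA-A subunit of cerebellar granule cells, was at 10.99, 11.11 and 9.41 in BalbC/J against 6.92, 7.56 and 7.78 in C57BL6/J, and Pcp2, of Purkinje cells, at 10.83, 11.07 and 9.86 against 6.87, 7.67 and 8.52. The summed level of the 12 genes was 13.76 to 14.61 in BalbC/J and 13.35 to 13.56 in C57BL6/J (log2 of the sum). Telencephalic, thalamic and hindbrain Hox genes had 0 called of 7, 8 and 13, with 2, 0 and 0 at an unadjusted p under 0.05, and 1, 1 and 0 called without that array. Of 3 Y-linked genes 0 were called, with 1 at an unadjusted p under 0.05 and 1 without that array.

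**Figure D4:**
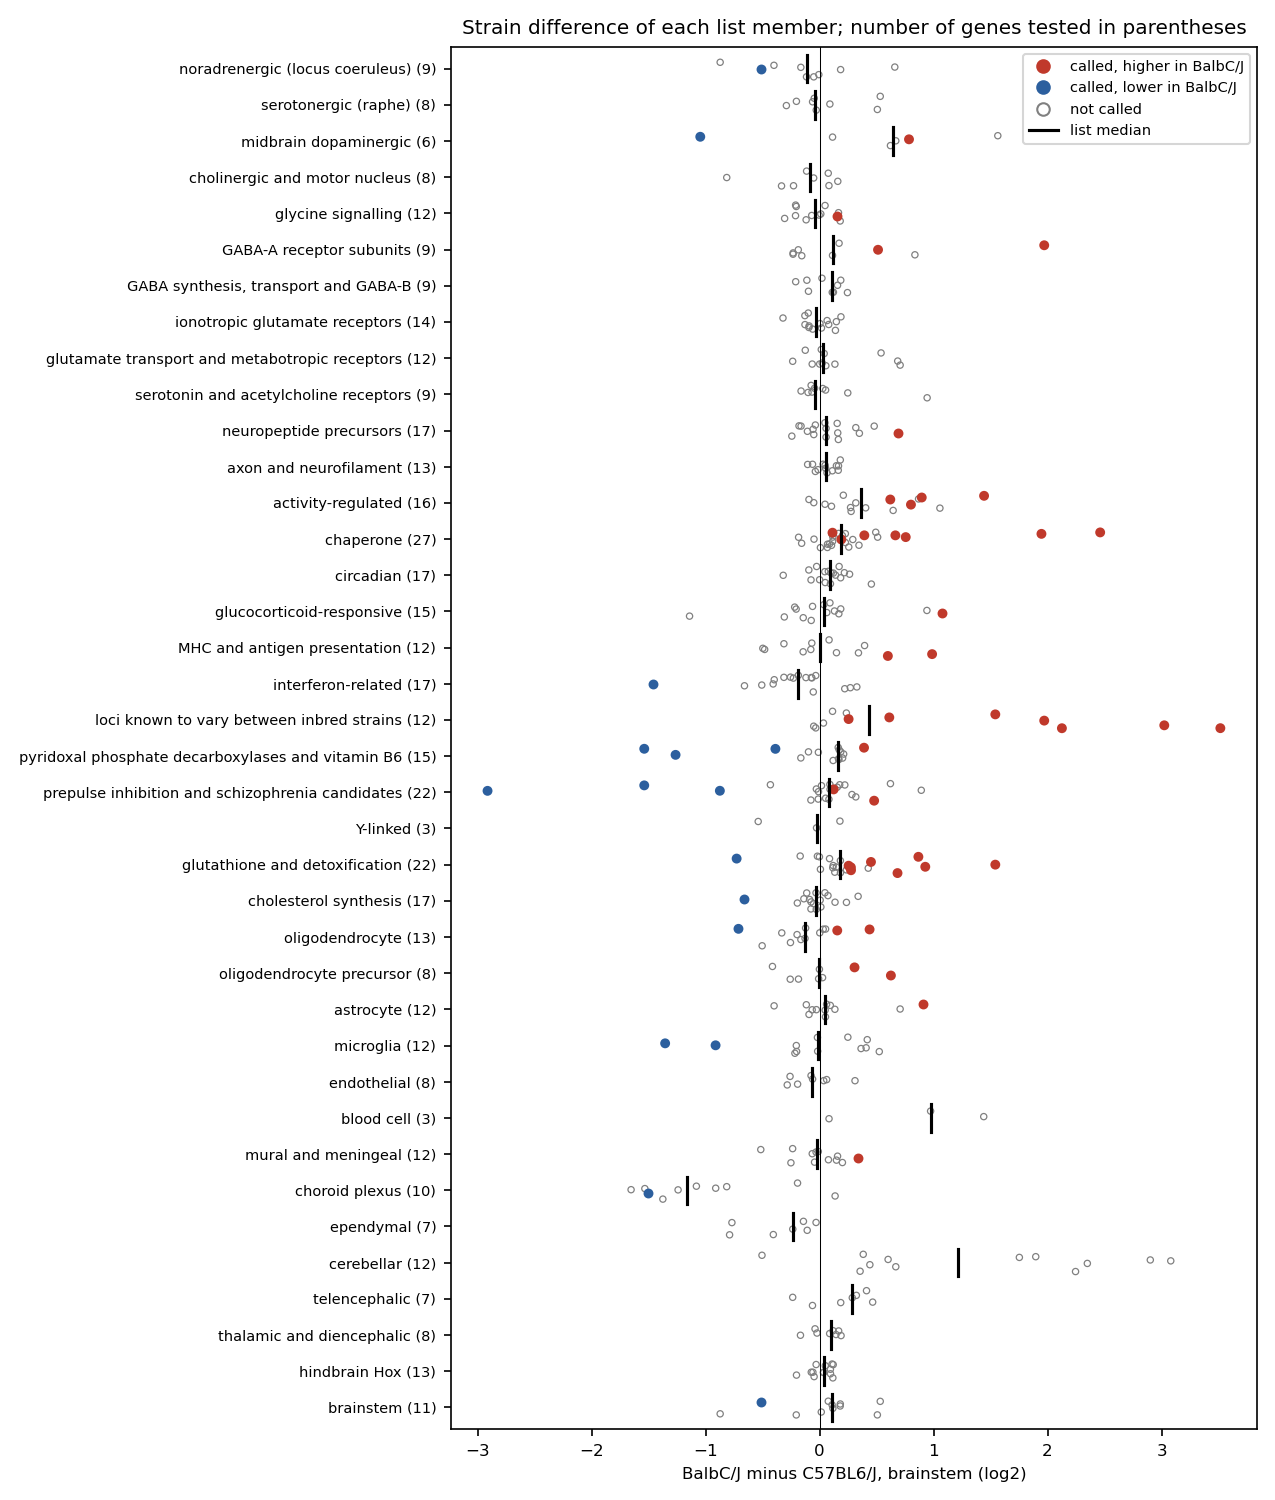
Each point is a list member's difference, BalbC/J minus C57BL6/J in brainstem (log2), filled red where called higher in BalbC/J, filled blue where called lower and open where not called, with a black bar at the list median and the number of genes tested in parentheses. Loci known to vary had 7 of 12 called and a median of 0.43, chaperones 7 of 27 and 0.19, and cerebellar genes 0 of 12 and 1.21.

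Gene families defined by symbol are read against the background of 12.3% called in the main fit. It was 25.3% without the C3H HeJ array and 18.7% with the covariates. Potassium channels had 4 higher and 3 lower of 60, sodium and calcium channels 1 and 2 of 29, respiratory chain genes 6 and 5 of 80, protocadherins 3 and 0 of 23, and solute carriers 27 and 9 of 248. With the single BalbC/J array these counts were 1 and 0, 0 and 1, 0 and 2, 1 and 0, and 11 and 4 in the same order. With the covariates they were 7 and 6, 0 and 4, 11 and 5, 2 and 1, and 43 and 11, and without the C3H HeJ array 9 and 6, 5 and 4, 14 and 7, 4 and 3, and 49 and 19. After quantile normalization they were 4 and 4, 1 and 2, 3 and 7, 1 and 0, and 18 and 11, so more respiratory chain genes were then lower than higher. Scn4b, an auxiliary subunit of sodium channels, was at 10.88, 10.94 and 11.00 in BalbC/J against 12.42, 12.32 and 12.33 in C57BL6/J (difference -1.42 ± 0.15 SE, adjusted p = 1.70e-05). C3H HeJ, at 10.63, was as low, and the 3 other C57 strains were at 12.25 to 12.39. Slc15a2, a peptide carrier, was at 8.36, 8.64 and 8.60 in BalbC/J against 5.96, 6.40 and 6.81 in C57BL6/J on its brightest probe set. The third set averaged 1.78 in BalbC/J and 7.36 in C57BL6/J and the mean of its sets differed by -1.60, so Slc15a2 has no single direction either.

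Zinc finger genes had 26 higher and 19 lower of 291 (19 and 22 after quantile normalization, 47 and 28 without the C3H HeJ array, 26 and 26 with the covariates, 9 and 5 with the single BalbC/J array), among them Zfp386, at 7.55, 7.77 and 7.95 in BalbC/J against 9.30, 9.38 and 9.28 in C57BL6/J. Genes with a ribosomal protein symbol had 5 higher and 7 lower of 51, of which 7 are kinases or a binding protein named after one, and the other 44 had 4 higher and 7 lower. For the 51 the counts were 6 and 8 without the C3H HeJ array, 4 and 7 with the covariates, and 1 and 3 with the single BalbC/J array. Rps6 was at 3.82, 4.12 and 3.97 against 6.81, 7.13 and 6.97, and Rps2 at 13.33, 13.32 and 13.29 against 12.77, 12.70 and 12.68. These families have many processed copies in the genome, which probe sets can share, so single members are uncertain. By chromosome the share of genes called was 8.69% on the X, 8.91% on chromosome 16 and 16.8% on chromosome 17, with the other autosomes between 9.24% and 16.3%.

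The last comparison asked whether the strain difference itself was unlike in brainstem, by testing the brainstem difference minus the mean of the hippocampal and striatal differences over all 54 arrays. Limma called 221 of 11606 genes (1.9%), 154 with a higher and 67 with a lower BalbC/J minus C57BL6/J difference in brainstem, and 142 of the 221 were also called in brainstem itself. In 86 of them the brainstem difference had the opposite sign to both other tissues. The tissues of a strain share mice that cannot be matched, so these p-values are not exact. Without the second untested C3H HeJ array 389 were called, and without the first untested BalbC/J array 115.

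Cldn34c1, a claudin gene of the X chromosome, was at 2.79, 2.82 and 2.86 in BalbC/J brainstem against 7.26, 7.55 and 7.17 in C57BL6/J brainstem. The BalbC/J brainstem values lay below the 40th percentile, so the difference there is a bound of at least 16.8-fold lower, beside log2 differences of -1.60 in hippocampus and -0.55 in striatum. Gm1976 and Dmp1 were lower in BalbC/J in all 3 tissues and more so in brainstem, with differences of -5.09, -3.13 and -2.50 for Gm1976 and -4.20, -3.10 and -0.36 for Dmp1. Ighm, the constant region of the IgM heavy chain, was at 7.64, 7.20 and 7.29 in BalbC/J brainstem against 9.49, 9.43 and 9.53 in C57BL6/J brainstem, while both strains were at 3.91 to 3.99 in hippocampus. All 4 genes thus had their wider fall in brainstem.

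The probe set annotated to Mir1931 was low in BalbC/J in every tissue, at 2.36, 2.35 and 2.52 in brainstem. In C57BL6/J it was at 3.18, 3.74 and 3.57 in brainstem, 7.64, 7.90 and 7.31 in hippocampus and 9.88, 9.73 and 9.74 in striatum. All 9 BalbC/J values and 1 C57BL6/J brainstem value lay at or below the 40th percentile, so the size of the Mir1931 difference is not exact in any tissue. The set reads a transcript at that locus and not the mature miRNA. Cfap54, a protein of motile cilia, differed by 0.76 in brainstem (not called, adjusted p = 0.0506), 3.60 in hippocampus and 3.82 in striatum. Fam163a differed by 0.47 in brainstem (not called, adjusted p = 0.394), -1.58 in hippocampus and -1.91 in striatum, a change of sign between tissues. Its 3 BalbC/J striatal values lay below the 40th percentile, so the size of the striatal difference is not exact.

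Cnpy1, a gene of the midbrain-hindbrain boundary in zebrafish, was at 8.63, 8.93 and 7.23 in BalbC/J brainstem against 4.23, 3.74 and 5.14 in C57BL6/J brainstem. In hippocampus and striatum it was between 3.25 and 3.82 in both strains. Its brainstem difference of 3.89 ± 1.41 (SE) was not called in the main comparison (adjusted p = 0.0927), while the difference between tissues was (3.91, adjusted p = 0.0419). Its levels followed the cerebellar genes, and with the marker covariates the brainstem difference was 1.68 (adjusted p = 0.0230). None of the 6 cerebellar genes tested across tissues was called in that comparison by limma, with 1 at an unadjusted p under 0.05.

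**Figure D5:**
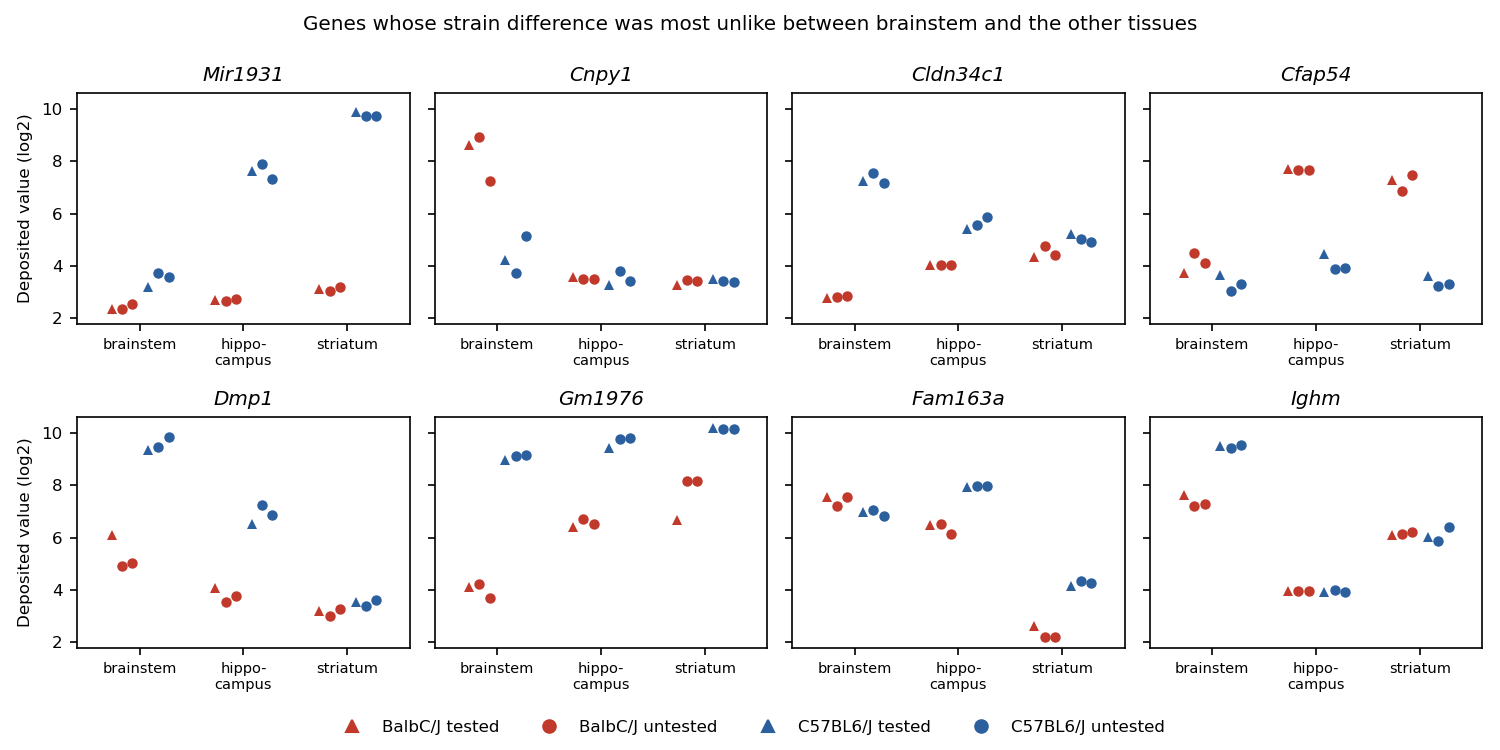
Deposited log2 values of the 8 genes whose BalbC/J minus C57BL6/J difference in brainstem was most unlike that in hippocampus and striatum, with BalbC/J arrays (red) left of C57BL6/J arrays (blue) in each tissue, triangles for tested pools and circles for untested pools. Mir1931 and Cfap54 differed between the strains mainly outside brainstem, and Cnpy1, Cldn34c1, Dmp1 and Ighm mainly or most widely in brainstem.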

How the data were processed

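RNA of pooled brainstem, hippocampus and striatum had been measured on 54 Affymetrix arrays. The deposited values are on a log2 scale. The authors' processing, per the submitters' processing notes, used R 2.6.1, affy 1.16.0, GCRMA 2.10.0 and limma 2.12.0 and names RMA as well, without saying which method made the values. No hybridization batch is given in the sources used here, and arrays have no read depth.

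Of 45101 probe sets, 34945 have 1 gene symbol, 932 several and 9160 are unnamed here. Only sets with 1 symbol were used, giving 18193 genes. Each gene was represented by its brightest set over the 54 arrays and tested if, on 3 or more of the 18 brainstem arrays, it exceeded the 40th percentile of that array. The model held strain and testing for prepulse inhibition, and was fitted with limma 3.58.1 (lmFit, contrasts.fit and eBayes with trend, R 4.3.3), with Benjamini-Hochberg adjustment and calls under 0.05. The fit was tested on simulated data. The tissue comparison used all 54 arrays. Where a strain lay at or below the 40th percentile on all 3 arrays, the fold is a bound against that percentile or the array's own value.

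The text names the 15 widest rises and falls, up to 4 called members of each list by p, and the 8 widest tissue differences. Other list members and Zhx2 were chosen after their values were seen. The members and the 45 lists were chosen with earlier results of these data known.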

Additional observations from a re-analysis of the deposited data

Results flagged for a closer look

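The test of the difference between tissues marked 8 genes whose BalbC/J minus C57BL6/J difference in brainstem was unlike the mean of that in hippocampus and striatum. Brainstem minus the other tissues was 4.71 for Mir1931, 3.91 for Cnpy1 and 2.21 for Fam163a (log2). It was -3.43 for Cldn34c1, -2.95 for Cfap54, -2.47 for Dmp1, -2.27 for Gm1976 and -2.14 for Ighm. These sizes have no order where values lay at or below the 40th percentile, namely for Mir1931 (BalbC/J in all 3 tissues), Cldn34c1 (BalbC/J brainstem), Fam163a (BalbC/J striatum), and, on 2 arrays and 1, Cfap54 (C57BL6/J brainstem) and Dmp1 (BalbC/J striatum). Adjusted p-values from limma ran from 1.1e-16 for Mir1931 to 0.0419 for Cnpy1.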

How the results depend on the processing

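The 30 widest genes kept their direction and their call in all 920 values under the alternatives that could be computed, and 97 named called genes did so in 2772 of 2991 values, lost the call in 216 and reversed in 3. The 3 reversals came from averaging a gene's probe sets, with differences of -0.26 for Atp5g1 and 0.11 for Slc25a51, neither called, and -1.60 for Slc15a2, which was called. The count of 1534 called genes became 2567 with only the 6 arrays, 3586 with array weights and 2557 for every probe set tested by itself, of which 524 were over 2-fold in place of 226 genes. Of the alternatives chosen after seeing the data, the cerebellar marker level as a covariate gave 3126, both marker levels 2337, and the second untested BalbC/J array as the only one of its strain 473. Leaving out 1 array at a time gave 971 to 3157 called genes and 199 to 253 over 2-fold, and in the tissue comparison 115 to 389 in place of 221. The tissue counts were 126 without the tested BalbC/J array, 121 without the tested and 126 without the first untested C57BL6/J array. The cause of these moves was not tested.

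With the replicate number as a block 1445 genes were called, and 199 in the tissue comparison. Same-numbered pools of the 2 strains did not deviate together (r = -0.01, -0.12 and -0.03 across genes), so the numbers are not taken to pair them. The number of arrays and values near the 40th percentile limit what can be seen.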
